A study of Solanum lycopersicum with 21 samples.

Results

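Leaves of irrigated tomato plants (Solanum lycopersicum, cultivar M82) were compared between a strigolactone-depleted line and the wild type. The comparison was defined by the sample labels: 3 libraries of line 6936, silenced in CCD7, against 3 wild-type libraries, which makes 6 of the 21 libraries in the series. The depleted libraries are replicates 3, 6 and 7 and the wild-type libraries replicates 6, 7 and 14. Both groups were 3 weeks old, had had no drought and no spray, carry the time label 0, and were sampled before their transfer to fresh wet vermiculite. Per the labels, strigolactone content was reduced by 70 to 80% in the line's root tissue and exudates. No source used here gives the leaf content or describes the silencing construct. The line is a single one, so an effect of CCD7 silencing and any other difference between this line and the wild type cannot be told apart. A replicate pooled 3 or more expanded leaves, each from another plant. If the 5 plants per condition in the labels served all 3 replicates, replicates must have shared plants. The p-values then measure a spread that is in part technical. Whether the 5 plants did so is not clear from the labels. The recovery groups, used below as a second measure of the genotype difference, are both genotypes irrigated again after 1 drought (time label 31) or after 2 droughts (time label 76). A wild-type group sprayed with 5 µM GR24 5DS, a synthetic strigolactone analogue, 24 h before sampling is given for levels alone.

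Strigolactones are hormones made from carotenoids, mostly in roots. The carotenoid cleavage dioxygenases CCD7 and CCD8 act in turn to give carlactone, from which the active hormones are formed. They are best known for holding back the outgrowth of side shoots and for recruiting mycorrhizal fungi when released from roots, and in tomato leaves they have been tied to abscisic acid sensitivity and to stomatal closure.

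The count table names genes by locus ID alone, and none of its 35039 IDs was found in the RefSeq gene table of assembly SLM_r2.1 (0 of 35039 matched). Functions and pathways were therefore not assigned, CCD7 and leaf marker genes were not checked, and no sequence is shown. The genotype difference is described by its size, by the level and position of the IDs that make it up, and by 4 IDs. These 4 were chosen among called IDs without overlap of the irrigated libraries, so their calls and lack of overlap follow from the choice. The 2 digits after the prefix Solyc give the chromosome, and the number after the letter g gives the order along it.

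Under irrigation, 7001 of 20373 tested IDs differed between the genotypes, 34.4% of all tested. Of these, 3751 were higher in the depleted line (18.4% of IDs tested) and 3250 were lower (16% of IDs tested). A further 2078 IDs had an unadjusted p under 0.05 without being called. In whole leaves, fewer cells of a type and less RNA per cell cannot be told apart. Calls were made by edgeR's quasi-likelihood test at a Benjamini-Hochberg adjusted p under 0.05. The direction of the majority was not stable. With TMM factors, which set most genes equal between libraries, 53.6% of calls were higher in the depleted line, and with library totals alone 31.5% were higher (2210 higher and 4812 lower). Without the low-count filter 3257 were higher and 3277 lower, and without depleted replicate 12 of recovery 1 the numbers were 3359 and 3359. Scaling by library totals alone moved the median log2 fold change over all tested IDs from 0.03 to −0.23, and the changes given here are those with TMM factors.

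The libraries of the 2 genotypes stood apart. Between a depleted and a wild-type library, the median absolute difference over tested IDs was 0.535 to 0.69 on the log2 scale (9 pairs). It was 0.275 to 0.443 between the depleted libraries and 0.221 to 0.296 between the wild-type ones (3 pairs each). The share of IDs at least 2-fold apart was 25.4 to 34.6% between genotypes, 11.8 to 18.7% within the depleted line and 7.59 to 11.8% within the wild type. The median SD was 0.31 in the depleted line and 0.233 in the wild type (log2 CPM, n = 3 each), a difference that was not tested. The wider pairs of the depleted line were those with replicate 3, at 0.353 and 0.443, while replicates 6 and 7 differed by 0.275. On the first principal component of the 6 libraries, with 61.8% of the variance, the depleted libraries lay at −67.4, −77.9 and −80.4 and the wild-type libraries at 56, 83.2 and 86.5. The second, with 14.5%, mainly parted depleted replicate 3, at 69.7, from replicates 6 and 7, at −7.5 and −55.3. Without replicate 3, 6566 IDs were called, 5767 of them also among the 7001 and in the same direction.

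Most called differences were moderate in size. Among IDs higher in the depleted line the median log2 fold change was 1.13, and 10% lay above 2.72. Among IDs lower there the median was −0.97, and 10% lay below −2.48. Of the higher IDs, 265 changed by less than 0.5 on the log2 scale, 1317 by 0.5 to 1, 1442 by 1 to 2, 431 by 2 to 3 and 296 by 3 or more. Of the lower IDs, 319 changed by less than 0.5, 1366 by 0.5 to 1, 1040 by 1 to 2, 317 by 2 to 3 and 208 by 3 or more. IDs that changed by at least 1 on the log2 scale numbered 3734, or 18.3% of all tested, and 2169 of them were higher. The median absolute log2 fold change was 0.34 among IDs not called and 0.55 over all tested.

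The libraries of the 2 groups did not overlap for 6674 of the 7001 called IDs (95.3%). Over all tested IDs, 48.5% had no overlap between the groups. Another 3205 IDs had no overlap and were not called, with a median absolute log2 fold change of 0.59.

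**Figure D1:**
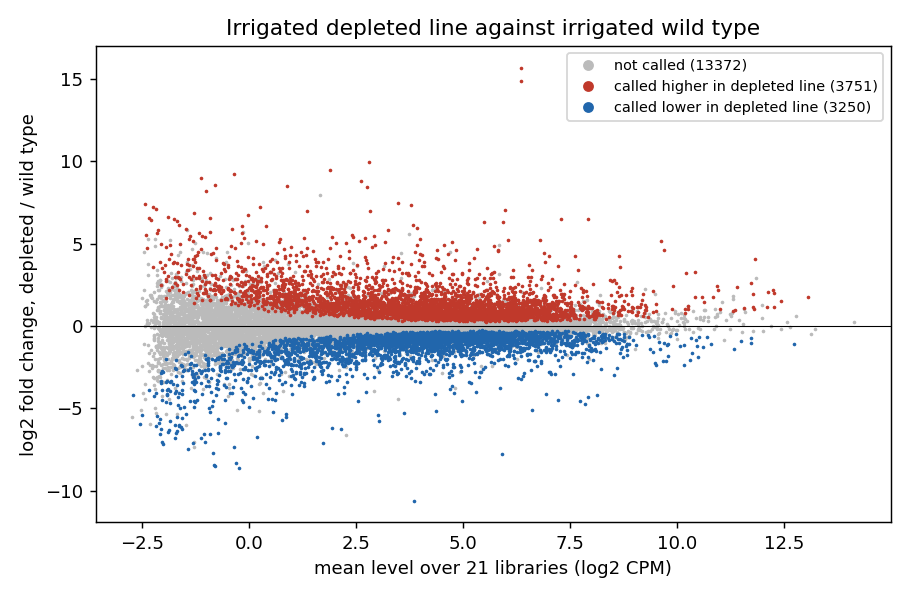
Log2 fold change of the irrigated depleted line against the irrigated wild type (vertical) against the mean log2 CPM over all 21 libraries (horizontal), 1 point per tested ID. The 3751 IDs called higher are red, the 3250 called lower blue and the rest grey, and the folds of called IDs narrow toward high levels.

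Differences were called at every level of abundance. Tested IDs were split by mean level into 5 classes of equal size. In the class of lowest level, 9.25% were called higher and 9.08% lower, with a median absolute log2 fold change of 2.5 among the calls. In the class of highest level, 24% were called higher and 19.5% lower, with a median of 0.86. In the lowest class the share called, 18.3%, fell with single libraries left out. It was 11.8% and 11.7% without depleted replicate 6 or 7, and 9.94% and 10.4% when wild-type replicate 7 or 14 was left out. The highest class, at 43.5%, fell in the same fits, to 34.1%, 34.8%, 31.1% and 35.9% in turn. The lowest class had 1.8% called without the low-count filter and 35% with a stricter one. With the replicate number added as a block, the lowest and highest classes had 4.05% and 27.2%. With calls limited to changes of 1 or more on the log2 scale, they had 18.1% and 17.8%. The rise with level thus lay in calls of smaller change, and the part of test power in it was not tested.

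With TMM factors, the most abundant transcripts leaned toward the depleted line. Of the 100 IDs of highest mean level in the 2 groups, all at 1320 CPM or more (counts divided by the TMM-scaled library total, on the usual CPM scale), 27 were called higher, 15 lower and 58 neither. Together they stood at 419800 CPM in the depleted line and 285100 CPM in the wild type, sums that include the TMM scaling. With library totals alone the calls were 21 higher and 20 lower, so the lean in number of IDs rested on the scaling. It also rested on single libraries, since 14 and 15 were higher without depleted replicate 6 or 7, and 13 when wild-type replicate 7 or 14 was left out. In the last case 14 were lower, so the lean was gone. Among the 1000 most abundant IDs, 250 were called higher and 175 lower, so that 42.5% were called. Over all tested IDs, 18.4% were called higher and 16% lower, and in the class of highest level 24% and 19.5%. The 1000 IDs were not counted again under the other settings.

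The share of counts held by abundant IDs is another measure and needs no scaling. The 100 most abundant IDs of each library held 32.4, 37.5 and 34.7% of its counts in depleted replicates 3, 6 and 7. In wild-type replicates 6, 7 and 14 they held 31.1, 29.4 and 26%. Every depleted library lay above every wild-type library, 34.8 ± 2.54% against 28.8 ± 2.62% (SD, n = 3 each). The number of IDs that held 50% of the counts was 449, 299 and 369 in the depleted libraries and 452, 533 and 734 in the wild-type ones, and depleted replicate 3 lay next to wild-type replicate 6. An exact two-sided permutation test gave p = 0.1 for both measures, the smallest that 3 against 3 libraries allow. TMM factors followed this split, at 0.819 ± 0.0656 in the depleted line and 0.988 ± 0.102 in the wild type (SD, n = 3 each).

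The summed difference in level was concentrated in few IDs. IDs called higher gained 255100 CPM in all, and 42 of the 3751 held 50% of it. IDs called lower lost 119200 CPM, and 97 of the 3250 held 50%. The 10 largest differences made up 27.6% of the gain and 19.2% of the loss. These sums are over IDs chosen by their calls and are a description. They also rest on the TMM factors, on average 0.819 in the depleted line and 0.988 in the wild type. The scaled levels of the 2 groups therefore do not add up to the same total, and gain and loss give no net change in transcript.

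The single largest difference in level was that of Solyc03g034220.3, on chromosome 3. It stood at 13600, 24700 and 20100 CPM in depleted replicates 3, 6 and 7. In wild-type replicates 6, 7 and 14 it stood at 7680, 5500 and 4370 CPM. The depleted libraries all lay above the wild-type ones but spread widely. Its log2 fold change came to 1.73 ± 0.44 (SE, edgeR adjusted p = 0.00612). Its mean level in the depleted line was lower after recovery, at 9220 ± 5350 CPM after 1 drought and 10600 ± 1030 CPM after 2 (SD, n = 3). That change was not tested, and depleted replicate 17 of recovery 1, at 14600 CPM, lay above irrigated replicate 3. The wild type stood at 4180 ± 870 and 4530 ± 929 CPM at recovery 1 and 2, and at 6000 ± 3490 CPM after GR24 (SD, n = 3). At recovery 1 the genotype difference of 1.14 ± 0.43 was not called (SE, edgeR adjusted p = 0.0708), and depleted replicate 16 stood at 3850 CPM, inside the wild-type range of 3660 to 5180 CPM. At recovery 2 it was called, at 1.22 ± 0.43 (SE, edgeR adjusted p = 0.0451). The interaction of genotype with recovery was not called at recovery 1 or 2 (edgeR adjusted p = 0.79 and 0.66).

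The smallest p among the IDs higher in the depleted line belonged to Solyc06g060640.1, on chromosome 6. Its level was 199, 264 and 228 CPM in depleted replicates 3, 6 and 7, with 0 counts in each irrigated wild-type library. Its mean in the depleted line, 230 CPM, was 6750-fold above 0.0341 CPM, the level of 3 counts over the 3 wild-type libraries. That ratio leaves out the spread of the depleted libraries. The ID was called higher in the depleted line (edgeR adjusted p = 6.98e-08). In the depleted line it stood at 178 ± 61.3 CPM at recovery 1 and 164 ± 27.7 CPM at recovery 2 (SD, n = 3), and single libraries of the 3 conditions ran from 108 to 264 CPM. All 3 irrigated libraries of that line lay above all 3 of recovery 2. Across the 12 wild-type libraries of all conditions it had 11 counts.

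Among IDs lower in the depleted line, the largest difference in level was that of Solyc06g073320.3, also on chromosome 6. It stood at 4750, 5960 and 5170 CPM in depleted replicates 3, 6 and 7. In wild-type replicates 6, 7 and 14 it stood at 11800, 11700 and 10600 CPM. Both groups were tight and far apart, at −1.10 ± 0.24 for the log2 fold change (SE, edgeR adjusted p = 0.00209). After recovery the wild type stood at 8010 ± 391 and 8190 ± 923 CPM, and the depleted line at 5760 ± 2320 and 6650 ± 1020 CPM (SD, n = 3). The genotype difference was then −0.48 ± 0.23 and −0.30 ± 0.23 and was not called (SE, edgeR adjusted p = 0.162 and 0.361). Whether it differed from that under irrigation was tested as an interaction and not called (edgeR adjusted p = 0.495 and 0.155). The GR24-sprayed wild type had the lowest mean level of the 7 groups, at 2760 ± 205 CPM (SD, n = 3).

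The smallest p among the lower IDs belonged to Solyc05g055160.3, on chromosome 5. It stood at 357, 334 and 324 CPM in depleted replicates 3, 6 and 7. In wild-type replicates 6, 7 and 14 it stood at 1630, 1770 and 1780 CPM, far above every depleted library. Its log2 fold change came to −2.35 ± 0.16 (SE, edgeR adjusted p = 2.11e-07). At recovery 1 the depleted line stood at 752 ± 146 CPM and the wild type at 1620 ± 94 CPM. At recovery 2 they stood at 971 ± 35.8 and 1420 ± 148 CPM (SD, n = 3). The genotype difference narrowed to −1.11 ± 0.15 and then −0.55 ± 0.15 on the log2 scale and remained called (SE, edgeR adjusted p = 0.000222 and 0.0123). The recovery groups also differ from the irrigated ones in sampling time. Wild-type plants sprayed with GR24 stood at 1200 ± 7.76 CPM (SD, n = 3), between the irrigated genotypes.

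**Figure D2:**
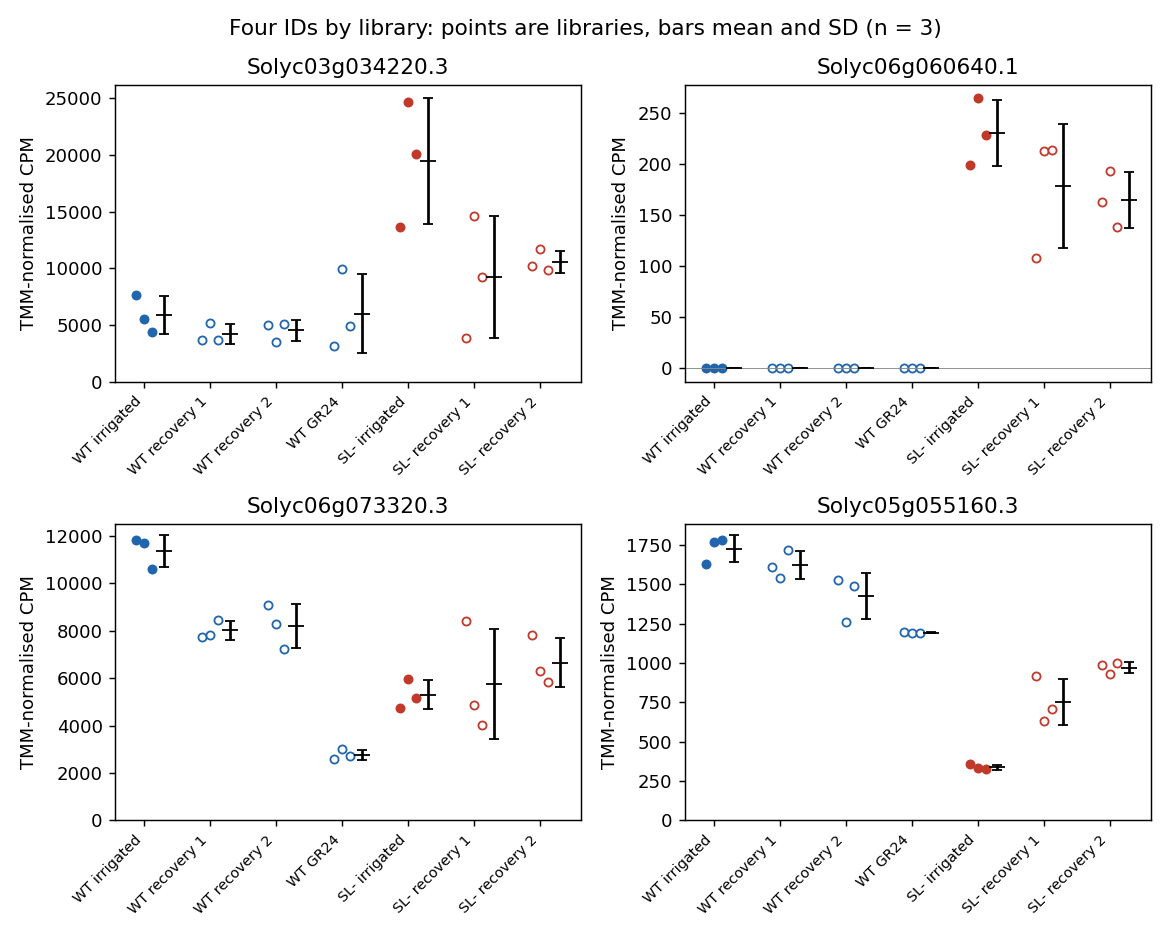
TMM-normalised CPM (vertical) of the 4 named IDs in every library of the 7 groups (horizontal), with wild type in blue, depleted line (SL-) in red, irrigated groups filled, and bars for mean and SD of 3 libraries. The irrigated genotypes do not overlap for any of the 4 IDs, which the rule that chose them required. Solyc05g055160.3 shows the difference narrowing from 339 against 1730 CPM to 971 against 1420 CPM at recovery 2.

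Some IDs lay at least 10-fold apart between every library of the 2 genotypes. In a rule set after the data were seen, every library of the higher group had to reach 1 CPM and no library of the other could exceed 0.1 times the lowest level among them. It was met by 45 IDs on the side of the depleted line, with levels of 1.92 to 1610 CPM there (median 24.8), and by 16 on the side of the wild type, with levels of 1.48 to 431 CPM (median 6.96). Of the 45 IDs, 6 met the rule at recovery 1 and 17 at recovery 2. Of the 16 IDs, 1 and 2 did so. Over all IDs in the table, the rule was met on the side of the depleted line by 10 at recovery 1 and 44 at recovery 2, and on the side of the wild type by 6 and 24.

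The recovery groups give the genotype difference as group means of other libraries. The estimate of spread is shared, since 1 fit held all 21 libraries. Over all tested IDs, 19.6% were called between the genotypes at recovery 1, 9.92% higher and 9.71% lower in the depleted line. At recovery 2, 26.6% were called, 14.9% higher and 11.7% lower. Of the 3751 IDs higher under irrigation, 39.1% were called higher at recovery 1 and 41.7% at recovery 2. Of the 3250 lower IDs, 42.6% and 34.6% were called lower. Called in the opposite direction were 11 and 84 of the higher IDs, and 3 and 50 of the lower ones. At neither recovery were 46.1% of the higher and 45.1% of the lower IDs called, which does not show that they no longer differed.

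The share called again grew with the size of the irrigated difference up to a log2 fold change of 3. Of higher IDs that changed by less than 0.5 on the log2 scale, 21.9% were called higher at recovery 1 and 29.8% at recovery 2. Of those that changed by 2 to 3, 53.8% and 56.6% were. Lower IDs under 0.5 were called lower in 21.3% and 13.2% of cases, and those of 2 to 3 in 58% and 59.3%. In the class of 3 or more the shares were 59.8% and 55.4% for higher and 53.4% and 49.5% for lower IDs. The differences were smaller at the recoveries than under irrigation, where the IDs had been chosen for their size. The higher IDs had a median log2 fold change of 1.13 under irrigation, 0.62 at recovery 1 and 0.58 at recovery 2, and the lower IDs had −0.97, −0.59 and −0.43.

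These shares rest in part on single recovery libraries. The 1468 higher and 1383 lower IDs called again at recovery 1 became 917 and 830 when depleted replicate 17 was left out. Leaving out depleted replicate 12 gave 860 and 719, and leaving out wild-type replicate 1 gave 795 and 777. Without depleted replicate 16 they were 1766 and 1624. As shares of the irrigated calls in each of those fits, the higher IDs called again were 24.6%, 25.6% and 21.4% without those libraries in turn, and 45.5% without replicate 16. The lower IDs called again were 25.2%, 21.4%, 24% and 48.2% in the same order. At recovery 2 the share of lower IDs fell from 34.6% to 23.9% without depleted replicate 11 of that recovery. Without wild-type replicate 9 of recovery 2 it was 25.2%, and the share of higher IDs fell from 41.7% to 30.8%. With library totals alone, the shares at recovery 1 and 2 were 36.9% and 38.4% of 2210 higher IDs (815 and 849), and 43% and 46.8% of 4812 lower IDs (2070 and 2252).

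**Figure D3:**
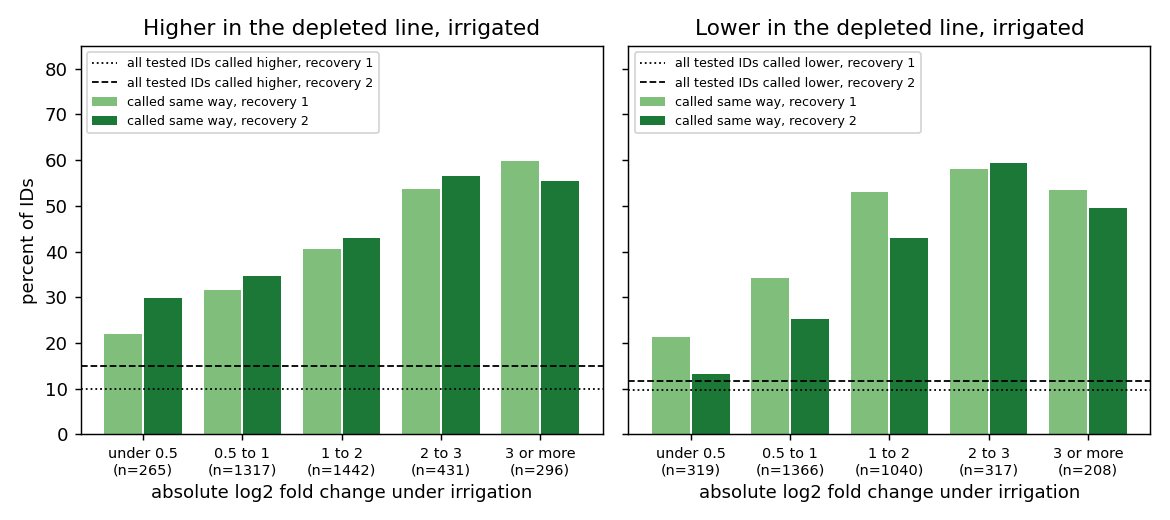
Percent of the IDs called under irrigation that were called in the same direction at recovery 1 (light) and recovery 2 (dark), by absolute log2 fold change under irrigation, for higher (left) and lower (right) IDs, with lines for the percent of all tested IDs called that way. For higher IDs the bars stand at 21.9% and 29.8% in the smallest class and at 59.8% and 55.4% in the largest, with recovery 2 highest at 56.6% in the class of 2 to 3. For lower IDs both are highest in that class, at 58% and 59.3%, and stand at 53.4% and 49.5% in the largest.

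The called IDs were spread over all 12 chromosomes. On each of chromosomes 1 to 12, 31.3 to 36.5% of tested IDs were called, with chromosome 2 lowest and chromosome 7 highest. The share of calls that were higher in the depleted line was 48.6% on chromosome 2 and 59% on chromosome 10, with the other chromosomes between. Large changes, of 3 or more on the log2 scale, were found on every chromosome. They ran from 8 lower IDs on chromosomes 7 (1511 tested) and 11 (1357 tested) to 40 higher IDs on chromosome 3 (2162 tested). As a share of tested IDs chromosome 3 was not the highest, since chromosome 12 had 30 higher IDs of 1367. Among IDs with the prefix ENSRNA, 67 were tested, 10 were called higher and 3 lower, or 19.4% against 34.4% of all tested. In the class of lowest level 18.3% of all IDs were called, and ENSRNA IDs were not compared with others of equal level.

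Neighbouring IDs moved the same way more often than distant ones. Of 2470 adjacent pairs of tested IDs in which both were called, 59.9% had the same direction. The share was 54.3% for IDs 2 steps apart, 52.2% at 5 steps, 50.7% at 10 steps and 49.3% at 200 steps. Over 17 alternative settings the share of adjacent pairs lay between 58.5 and 67.6%. Pairs in which both were called were about as frequent at 1 step (12.2% of pairs) as at 200 (11.8%), so it was the direction, more than the call, that neighbours shared. The library kit does not mark the strand, and how reads of overlapping or near-identical neighbours were counted is not described in the labels. Their part in the shared direction was not tested.

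Runs of at least 5 adjacent tested IDs called in 1 direction numbered 6 higher, with 32 IDs, and 7 lower, with 39 IDs. The longest run, described after its values were seen, was 7 lower IDs on chromosome 3, with log2 fold changes of −7.08 to −1.77 (median −3.25). Its mean levels were low, at most 3.7 CPM in the depleted line and at most 12.7 CPM in the wild type. At each recovery 6 of the 7 were called lower again. Over all the runs, 10 of the 32 higher IDs were called higher again at recovery 1 and 7 at recovery 2. Of all 3751 higher IDs, 39.1% and 41.7% were. Of the 39 lower IDs in runs, 26 and 20 were called lower again, beside 42.6% and 34.6% of all 3250 lower IDs. How many runs of this length would form without a link between neighbours was not computed. A run of 6 higher IDs near the start of the same chromosome's numbering held an abundant transcript, at 8990 CPM in the depleted line against at most 1990 CPM for any ID of the run in the wild type.

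**Figure D4:**
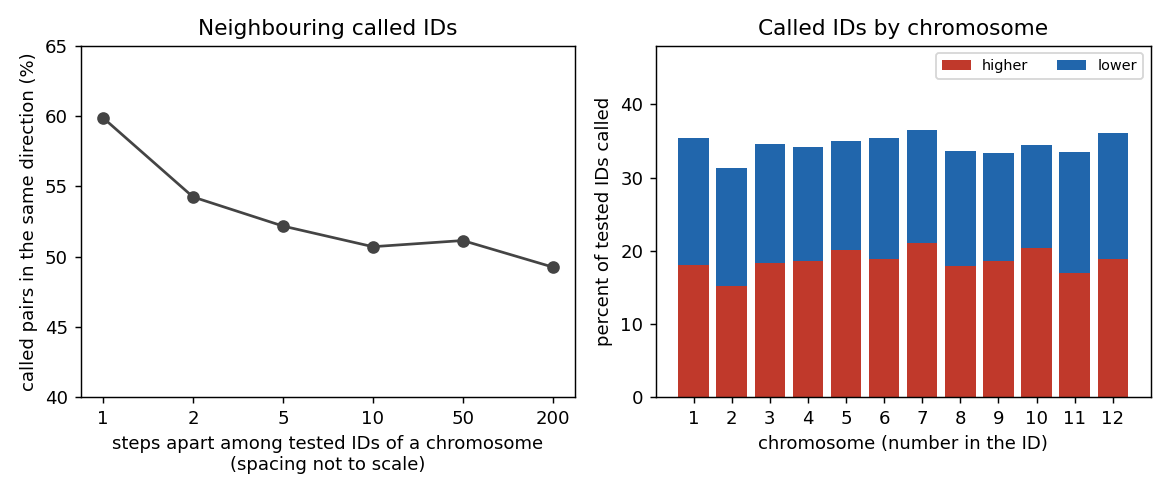
Left, percent of pairs of called IDs that share a direction (vertical) by the number of steps between them among tested IDs of a chromosome (horizontal), falling from 59.9% at 1 step to 49.3% at 200. Right, percent of tested IDs called higher (red) and lower (blue) on each of the 12 chromosomes, all between 31.3 and 36.5% in sum.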

How the data were processed

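Leaf RNA of 21 libraries was sequenced as paired ends after library preparation with a NEBNext Ultra RNA kit, per the labels' protocols. The submitters' processing notes name HISAT2 and HTSeq. No version, setting or genome build is given in the sources used here. The authors deposited raw counts per gene, as whole numbers. A further 6 columns match no sample label and were not used. Total counts per irrigated library ranged from 23517459 to 34997305, so a floor of 3 counts was 0.0947 to 0.144 CPM. Such floors reflect counting error alone, because reads include PCR copies. Replicates were compared by a chi-square statistic per degree of freedom, 35.1 to 151, where sampling noise gives about 1, and none was merged.

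The test was edgeR 4.0.16 under R 4.3.3. IDs passed filterByExpr on the 7 groups (20373 IDs), libraries were scaled by TMM, and 1 robust quasi-likelihood fit over 21 libraries had 14 residual degrees of freedom. Adjusted p-values are Benjamini-Hochberg over all tested IDs. SEs are the absolute log2 fold change divided by the root of F. The fit was also run on simulated counts in which few IDs changed, evenly up and down, a setting that cannot test the TMM scaling. DESeq2 1.42.0, limma 3.58.1 and other alternatives were tried.

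The 4 named IDs are, in each direction, the called ID without overlap of libraries that had the largest difference of mean CPM and the one of smallest p. The members, lists and rules were chosen with earlier results of these data known. The 30 gene lists prepared were not applied, because no ID could be matched to a gene name. The replicate numbers 6 and 7 occur in both irrigated groups, but no label ties them to a shared plant or batch.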

Additional observations from a re-analysis of the deposited data

Results flagged for a closer look

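The genotype difference of Solyc05g055160.3 was not the same in all conditions, by a test of the difference itself. The difference at recovery 1 minus that under irrigation was 1.24 ± 0.21 on the log2 scale (SE, edgeR adjusted p = 0.0153), and at recovery 2 it was 1.80 ± 0.21 (SE, edgeR adjusted p = 0.000741). In the depleted line, every one of the 6 recovery libraries (634 to 997 CPM) lay above the irrigated ones (324 to 357 CPM). Both tests use the same irrigated libraries, on which this ID had been chosen for its small p. The other 3 named IDs had no such difference called at either recovery.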

How the results depend on the processing

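The 4 named IDs kept their direction and their call under all 17 alternatives run for them, with adjusted p up to 0.0397. They had been chosen from the same libraries as called IDs of small p or large difference, so this says nothing about other calls. The setting that requires a log2 fold change of at least 1 reuses the main fit, so it could not change their values. The count of 7001 called IDs (3751 higher, 3250 lower) stayed within 1.5 times under RLE and upper-quartile factors, both low-count filters, DESeq2 (7897), limma-voom (6552), the 6 irrigated libraries alone (6401) and without replicate 16 of the depleted line at recovery 1. Leaving out 1 irrigated library gave 4822 to 6566 IDs, 2551 to 3451 higher and 2271 to 3115 lower. Library totals alone, added after seeing the data, gave 2210 higher IDs. Requiring a log2 fold change of at least 1 left 3734 IDs, 2169 higher and 1565 lower, by its own construction. Upper-quartile factors turned the majority, with 3293 higher and 3751 lower, as did the fit without the low-count filter. Adding the replicate number as a replicate block gave 3598 IDs, 1890 higher and 1708 lower, of which 3363 were also called without the block and in the same direction. That fit rests on numbers 6 and 7 and has 4 residual degrees of freedom. No pairing by number was seen. Deviations from the group means correlated across genes with r = 0.0646 for number 6 and −0.045 for number 7. Between libraries of unlike number r ran from −0.109 to 0.0865. With 3 libraries per group this cannot exclude a weak pairing. Gene list alternatives were not run. At low levels, with few counts behind each value, a difference that was not called may be missed.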
